A study of Homo sapiens with 12 samples.

Results

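Chromatin immunoprecipitation with sequencing (ChIP-seq) with an antibody to HOXA13 was carried out in untagged Huh7 cells, a human liver-cancer line, and 10246 intervals on chromosomes 1 to 22 were called over the input of the same cells. They were all the autosomal intervals of that peak list, which held 10710 on all sequences. The 4 lists of the series together held 164693. The 12 libraries of the series come from HepG2 and Huh7 cells, both untagged and carrying HA-tagged HOXA13. Each of these 4 cell populations gave 1 antibody ChIP, 1 input and 1 ChIP with mouse IgG, the last not used here. The Huh7 group described here thus consists of 1 anti-HOXA13 ChIP and 1 input with no tagged protein. The other lists, used as background, set anti-HOXA13 against input in untagged HepG2, and anti-HA against input in tagged HepG2 and in tagged Huh7. The labels state 50 M reads per sample, fragments of about 200 bp and stable transfection. They do not give the vector, the promoter of the tagged gene, the number of clones or the HOXA13 level of untagged Huh7 cells. No condition has a replicate, so no test between conditions was made and the error ranges printed cover counting error only. The ranges of shares and densities treat intervals as independent, which neighbouring intervals are not. The names of all 10710 list entries carried the Huh7 anti-HOXA13 ChIP and Huh7 input of the label.

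HOXA13 belongs to the posterior HOX genes, which pattern the distal limb and the urogenital tract, and its homeodomain binds AT-rich DNA. In ChIP-seq, fragments bound by the antibody pile up over places where the protein sits, and a peak caller compares that pileup with the one expected from input, which is sonicated chromatin that was not precipitated. Chromosome 19 is the human chromosome densest in genes and carries large clusters of genes for zinc finger proteins, most of which arose by tandem duplication. Near-identical copies of this kind can share reads, and how such reads were handled is not given in the sources used here. All folds and q values of single intervals are the authors'. Fragment counts and expected pileups were solved from them.

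Few of the intervals stood far above input. The fold of the ChIP pileup over the expected pileup at the summit had a median of 2.69, with quartiles of 2.38 and 3.08, and ranged from 1.298 to 13.7. The median summit stood on 14 ChIP fragments. A q of 0.05 or less was reached by 960 intervals (9.37%), and 6735 (65.7%) had a −log10 q of 0. Intervals with −log10 q of 5 or more, called strong here, numbered 266 (2.60% of 10246). Intervals of at least 5-fold numbered 206 (2.01%), and 177 of these were strong. A −log10 q of 10 or more was reached by 93 (0.908%). Strong intervals had a median of 5.48-fold and 34 ChIP fragments. The pileup expected from input lay at the genome background of 2.60 under 1610 intervals (15.7%) and reached 89 at most.

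The highest interval lay on chromosome 19, at chr19:2933346-2933871, with 13.7-fold (95% Poisson interval 10.9 to 16.9). Its summit held 82 ChIP fragments, which is 66.6 after scaling to the input library, where 3.94 were expected. Chromosome 17 followed at chr17:15619792-15620718, with 12.2-fold (9.37 to 15.7) on 59 fragments. Next came a pair of neighbours on chromosome 16. They were chr16:3458609-3459025 at 11.8-fold (8.84 to 15.4) and chr16:3432936-3433521 at 10.6-fold (7.87 to 14.1), both over an input at the genome background. A narrow interval of 293 bp at chr13:59523832-59524124 reached 10.4-fold (7.68 to 13.9). The Poisson intervals of these 5 overlap, so their order is not resolved by the counts.

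Chromosome 19 held 9 of the 20 highest intervals by fold, and the other 11 were spread over chromosomes 1, 2, 5, 7, 11, 13, 16 and 17. After the leader, the chromosome 19 intervals were chr19:22130607-22130869 at 10.0-fold (7.47 to 13.1), chr19:23040331-23040856 at 9.97-fold (7.29 to 13.3) and chr19:58708182-58708737 at 9.29-fold (6.80 to 12.4). A wider one, chr19:44980643-44981768, stood at 9.23-fold (7.19 to 11.7) on 67 fragments. The remaining 4 were chr19:7083031-7083813 at 9.18-fold, chr19:12637448-12638686 at 9.13-fold, chr19:58489598-58490893 at 8.90-fold and chr19:14829230-14829917 at 8.88-fold. The tenth highest on this chromosome, chr19:22327234-22327551, fell just outside the 20, at 7.97-fold. The chromosome 19 intervals in the plot of the 20 highest were a median of 688 bp wide (263 to 1296 bp), and 8 of the 9 were at least 500 bp wide.

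**Figure D1:**
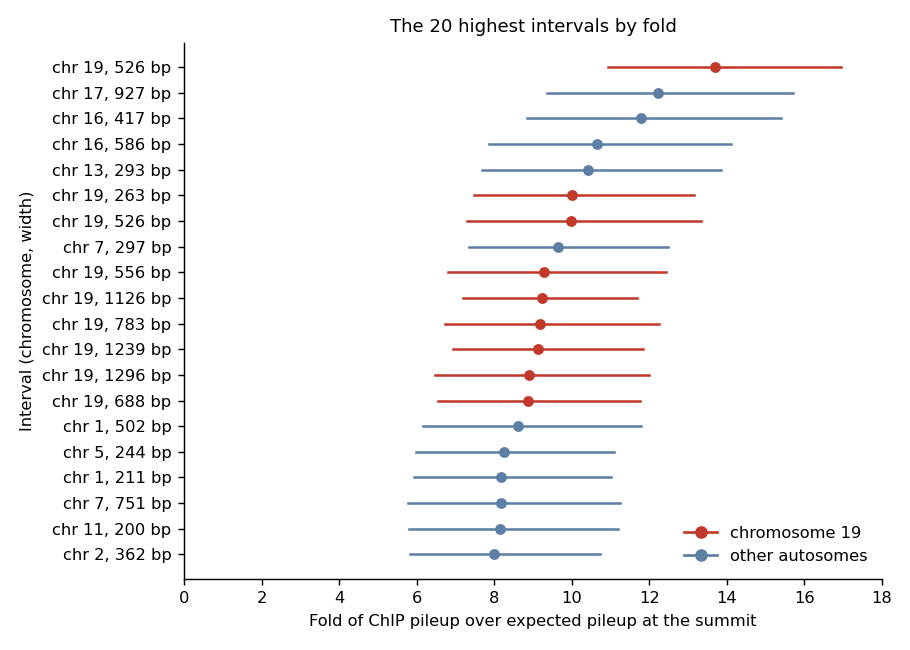
Fold of the ChIP pileup over the expected pileup at the summit (x axis) for the 20 highest Huh7 anti-HOXA13 intervals (y axis, labelled by chromosome and width). Points are the authors' folds and lines 95% Poisson intervals of the ChIP fragment count; 9 of the 20 (red) lie on chromosome 19, and the leader stands at 13.7-fold.

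Outside chromosome 19 the highest intervals were mostly narrower. Their median width among the 20 was 362 bp (200 to 927 bp), and 4 of the 11 reached 500 bp. Chromosome 7 gave chr7:133774225-133774521 at 9.66-fold (7.34 to 12.5) and chr7:57187644-57188394 at 8.17-fold (5.77 to 11.2). Chromosome 1 gave chr1:185554815-185555316 at 8.62-fold (6.15 to 11.8) and chr1:144365563-144365773 at 8.17-fold (5.93 to 11.0). The last 3 were chr5:91757712-91757955 at 8.24-fold, chr11:47897503-47897702 at 8.16-fold and chr2:156261213-156261574 at 7.99-fold. None of the 20 had raised input, meaning an expected pileup over 3 times the genome background, and 6 lay at the background itself. Because the expected pileup is the denominator of the fold, a ranking by fold favours places of low input.

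Every autosome but chromosome 21 had an interval of at least 5-fold. Those without an entry among the 20 were led by chr20:62595926-62597648 at 7.96-fold, chr12:133779114-133781185 and chr6:33068962-33069265, both at 7.94-fold, and chr9:95746164-95746533 at 7.83-fold. Chromosomes 3 and 4 followed, each at 7.27-fold, at chr3:195333440-195333892 and chr4:116936260-116936519. Chromosome 18 reached 6.53-fold at chr18:11544143-11544372, and chromosome 8 reached 6.37-fold at chr8:42965393-42965824. On chromosome 10 the highest was chr10:55155123-55155468 at 5.93-fold. Chromosomes 14, 15 and 22 ended at 5.46-fold (chr14:68176972-68177280), 5.46-fold (chr15:83156484-83156711) and 5.40-fold (chr22:22823280-22823526). The highest on chromosome 21, at chr21:19468784-19468910, stood at 3.89-fold (2.34 to 6.14) on 16 fragments, and that chromosome held no strong interval.

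Strong intervals were denser on chromosome 19 than on the other autosomes, and the contrast was larger than among all intervals. Chromosome 19 makes up 2.07% of the covered length and held 6.03% (5.58 to 6.51%) of all intervals, 20.3% (15.6 to 25.6%) of the strong ones and 23.3% (17.7 to 29.7%) of those of at least 5-fold. Per Mb this was 3.00 times (2.77 to 3.25) the median autosome for all intervals and 11.6 times (8.69 to 15.1) for strong ones. Of the 618 intervals on chromosome 19, 54 were strong, which is 8.74% (6.63 to 11.2%), against 2.20% (1.92 to 2.52%) of the 9628 elsewhere and 2.60% in the whole list. Chromosome 11 at 2.09 times (1.33 to 3.14) and chromosome 7 at 1.77 times (1.12 to 2.65) the median were next for strong intervals, with 23 each. On chromosome 11, 10 of the 23 had raised input, and on chromosome 7 this was 1 of 23.

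**Figure D2:**
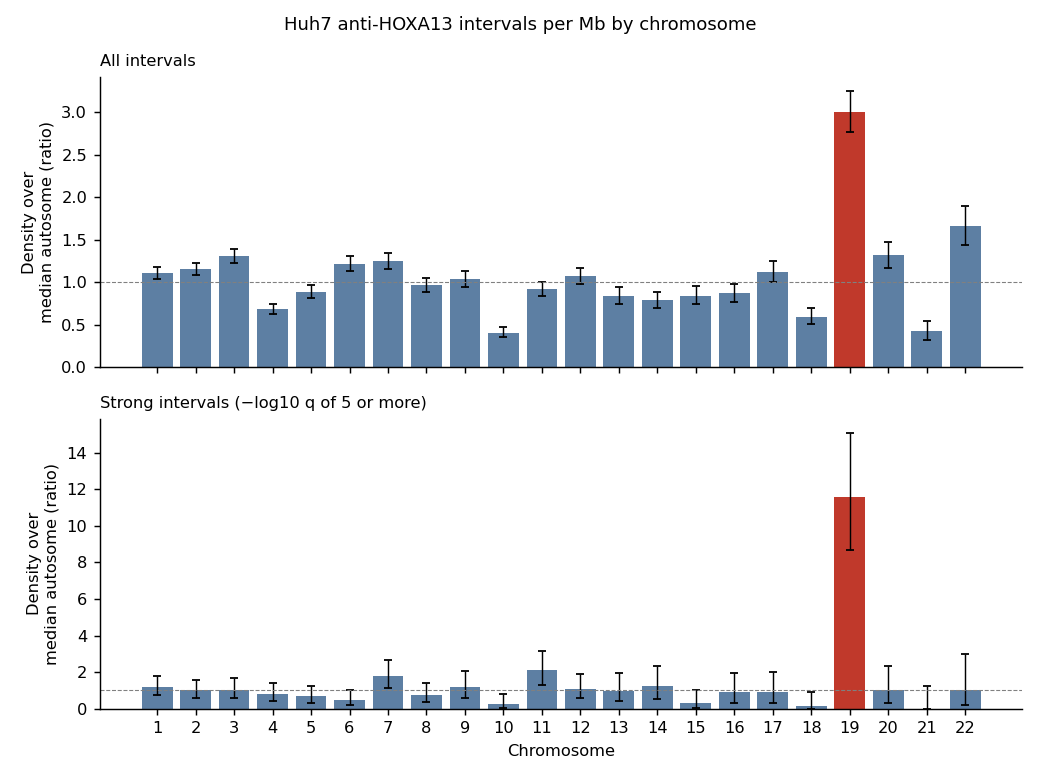
Density of Huh7 anti-HOXA13 intervals per Mb of covered length, as a ratio to the median autosome (y axis), for each autosome (x axis), in all intervals (upper) and strong intervals (lower). Error lines are 95% Poisson intervals of the count; chromosome 19 (red) stands at 3.00 and 11.6 times the median.

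Among all intervals, the other chromosomes differed less. Chromosome 22 stood at 1.65 times (1.44 to 1.89) the median autosome and chromosome 20 at 1.31 times (1.17 to 1.47). The lowest were chromosome 10 at 0.405 times (0.350 to 0.466), chromosome 21 at 0.421 times (0.317 to 0.547) and chromosome 18 at 0.592 times (0.505 to 0.690). Within chromosomes, the sides of the longest interval-free stretch differed by more than 2 times per Mb on chromosomes 4, 6, 9, 11 and 20. On chromosome 6 the low-coordinate side held 136 intervals (2.32 per Mb) and the high side 612 (5.61 per Mb). Chromosome 9 went the same way, with 59 (1.25 per Mb) and 409 (5.42 per Mb). The reverse held on chromosome 4, with 231 (4.65 per Mb) and 239 (1.73 per Mb), and on chromosome 11, with 265 (5.15 per Mb) and 179 (2.23 per Mb). Strong intervals on chromosome 11 did not share that contrast, with 11 on the low side and 12 on the high side. The number of copies of each arm in Huh7 cells was not measured here, and its part in these densities was not tested.

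Chromosome 19 is also rich in genes, so the strong intervals were set against gene numbers. In the RefSeq table of GRCh38.p14, used only for symbols and the chromosome they lie on, chromosome 19 holds 1451 of 19126 autosomal coding genes (7.59%). It had 3.72 (2.80 to 4.86) strong intervals per 100 coding genes, against 1.20 (1.04 to 1.37) over the other 21 autosomes. Chromosome 7 was next, at 2.45 (1.55 to 3.68), and chromosome 13 stood at 2.37 (1.02 to 4.66) from 8 strong intervals. Chromosome 17, another gene-dense chromosome, had 0.513 (0.188 to 1.12) and chromosome 22 had 0.665 (0.137 to 1.94). Chromosome 19 thus had more strong intervals per gene than chromosomes 17 and 22. Over the other 21 autosomes the count of strong intervals still rose with coding genes, with Pearson r of 0.75 and Spearman rho of 0.74. With covered length these were 0.75 and 0.77.

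Width set the chromosome 19 intervals apart further. Interval widths ran from 123 bp, the shortest possible call, which 1700 intervals (16.6%) had, to 2072 bp, with a median of 158 bp. Intervals of 500 bp or more, called wide here, numbered 122 (1.19%), and 63 of them (51.6%, 42.4 to 60.8%) lay on chromosome 19. At 1000 bp or more it was 12 of 26 (46.2%, 26.6 to 66.6%), and at 300 bp or more 137 of 591 (23.2%, 19.8 to 26.8%). Strong intervals on chromosome 19 had a median width of 562 bp (quartiles 386 and 754 bp), and 31 of 54 were wide (57.4%, 43.2 to 70.8%). Elsewhere the median was 302 bp (247 and 432 bp), and 35 of 212 were wide (16.5%, 11.8 to 22.2%).

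Since higher intervals tend to be wider, widths were also read at matched fold. From 4- to 5-fold, 15 of 37 intervals on chromosome 19 (40.5%, 24.8 to 57.9%) were wide, against 17 of 287 (5.92%, 3.49 to 9.32%) elsewhere. From 5- to 6-fold it was 10 of 24 (41.7%, 22.1 to 63.4%) against 15 of 90 (16.7%, 9.64 to 26.0%). From 6- to 8-fold the counts were 9 of 15 (60%, 32.3 to 83.7%) and 6 of 58 (10.3%, 3.89 to 21.2%). At 8-fold or more they were 8 of 9 (51.8 to 99.7%) and 4 of 10 (12.2 to 73.8%). The binomial intervals of chromosome 19 and elsewhere overlap in the classes from 5- to 6-fold and at 8-fold or more. They do not overlap from 4- to 5-fold or from 6- to 8-fold. Neighbouring peaks are not independent, so these ranges are likely too narrow, and their overlap is no test. The median fragment counts at the summit were alike within each class, for example 33 on chromosome 19 and 34 elsewhere from 6- to 8-fold, where the median widths were 660 and 301 bp. Even from 3- to 4-fold, 13 of 149 (8.72%, 4.73 to 14.5%) against 13 of 2130 (0.610%, 0.325 to 1.04%) were wide.

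**Figure D3:**
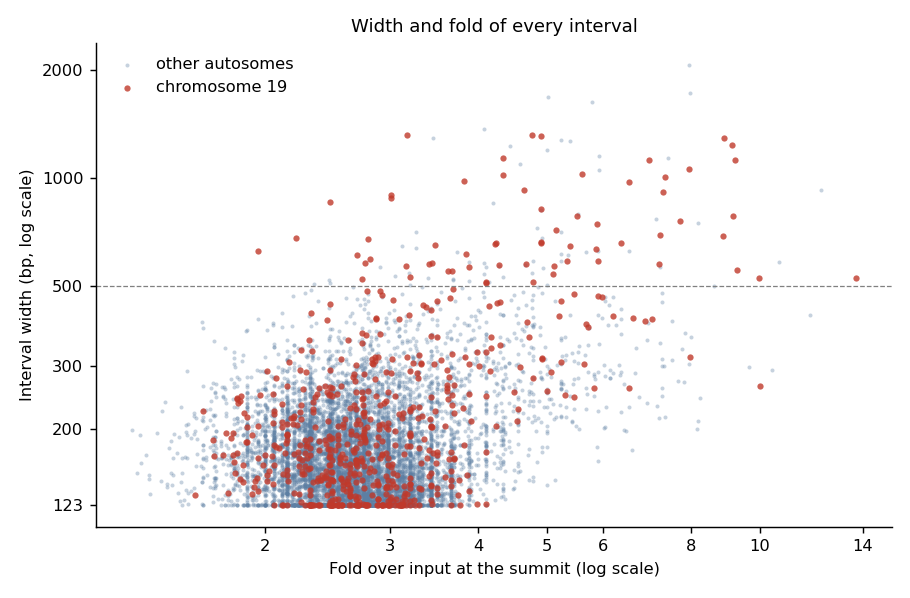
Width in bp (y axis, log scale) against fold over input at the summit (x axis, log scale) for all 10246 Huh7 anti-HOXA13 intervals, 1 point each, with the 618 of chromosome 19 in red. The dashed line marks 500 bp; 63 of the 122 intervals at or above it lie on chromosome 19.

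The 10 widest intervals were not all on chromosome 19. The widest, chr12:133779114-133781185, measured 2072 bp and stood at 7.94-fold (5.59 to 11.0), and chr20:62595926-62597648 measured 1723 bp at 7.96-fold (5.71 to 10.8). Next were chr17:5085128-5086809 with 1682 bp at 5.02-fold (3.65 to 6.73) and chr4:436292-437921 with 1630 bp at 5.80-fold (4.08 to 8.02). An interval of 1374 bp at chr1:227842076-227843449 reached 4.08-fold, with an input of 8 expected fragments. Chromosome 19 held 4 of the 10, namely chr19:56934622-56935940, chr19:58772917-58774233, chr19:23158313-23159623 and chr19:58489598-58490893, between 1296 and 1319 bp. The last of the 10 was chr7:5103851-5105142, with 1292 bp. Of these 10, 7 were strong, 3 had raised input and 5 had their summit within 1 Mb of the first or last interval of the chromosome.

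Most wide intervals lay away from chromosome ends, but a larger share of them than of all intervals lay near one. Within 1 Mb of the first or last interval of any list lay 14 of the 59 wide intervals elsewhere (23.7%, 13.6 to 36.6%), against 2.36% (2.08 to 2.68%) of all intervals. On chromosome 19 it was 7 of 63 (11.1%, 4.59 to 21.6%), and the ranges of these 2 wide classes overlap. The 2.36% is over all autosomes, and the share for all intervals of chromosome 19 was not computed. Of its 618 intervals, the first megabase held 5 and the megabase from 58000001 to 59000000 held 29. An excess of wide intervals near the ends of chromosome 19 is therefore not shown. Strong intervals of any width outside chromosome 19 lay there in 15 of 212 cases (7.08%, 4.01 to 11.4%).

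The number of wide intervals per chromosome was set beside the number of genes and of zinc finger genes. Coding genes whose symbol starts with ZNF, ZFP, ZSCAN, ZKSCAN or ZBTB number 598 on the autosomes in the GRCh38.p14 table, and 265 of them (44.3%) are on chromosome 19. The symbol does not in each case mean a DNA-binding zinc finger protein. Across the 22 autosomes the count of wide intervals had Pearson r of 0.98 and Spearman rho of 0.69 with the count of these symbols, r of 0.42 and rho of 0.67 with coding genes, and r of −0.14 and rho of 0.36 with covered length. Without chromosome 19 the values over 21 chromosomes were r of 0.62 and rho of 0.65 for zinc finger symbols, 0.61 and 0.62 for coding genes, and 0.52 for both against length. The high r with zinc finger symbols therefore rested on chromosome 19, and over the other chromosomes it did not stand out from that with coding genes. Chromosomes share their libraries and are not independent, and these values are a description. No interval was assigned to a gene, and whether the wide intervals lie in zinc finger genes was not tested.

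The next counts of zinc finger symbols were 39 on chromosome 7, 36 on chromosome 16 and 34 on chromosome 1, which held 6, 5 and 9 wide intervals. The chromosomes with no wide interval were 5, 13, 15, 18, 21 and 22, with 15, 0, 9, 12, 1 and 4 such symbols. Chromosome 4 had 8 wide intervals with 10 symbols and chromosome 2 had 2 wide intervals with 10 symbols.

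**Figure D4:**
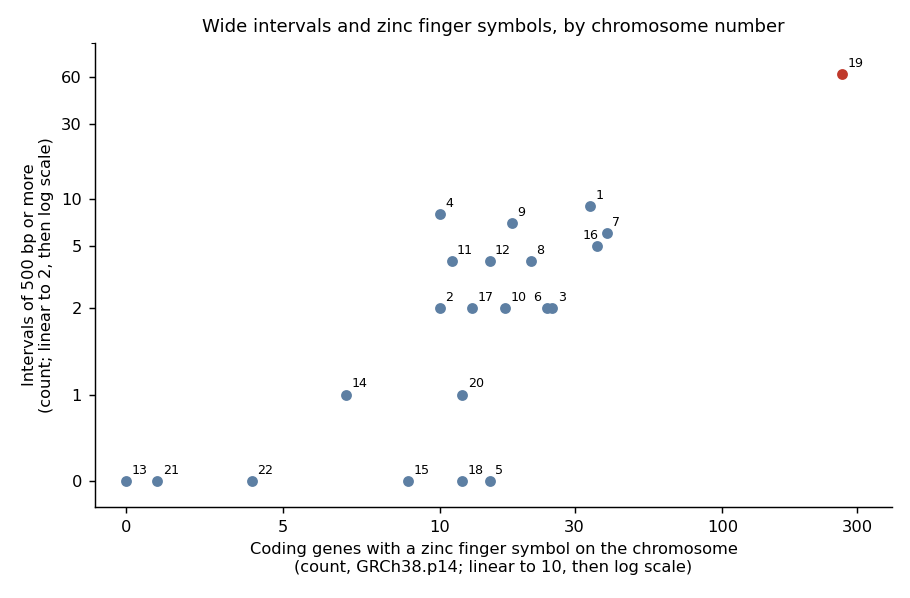
Number of Huh7 anti-HOXA13 intervals of 500 bp or more (y axis) against the number of coding genes with a zinc finger symbol in the GRCh38.p14 table (x axis), 1 point per autosome, labelled by chromosome. Both axes are linear near 0 and logarithmic beyond; chromosome 19 (red) has 63 intervals and 265 symbols.

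Strong intervals lay closer together on chromosome 19 than elsewhere. The nearest other strong summit was a median of 100.5 kb away on chromosome 19 (quartiles 31.2 and 318 kb) and 2800 kb away elsewhere (582 and 6708 kb). Joined at distances up to 100 kb, 26 of the 54 strong intervals of chromosome 19 (48.1%, 34.3 to 62.2%) shared a group with another, in 8 groups, against 21 of 212 (9.91%, 6.24 to 14.7%) in 9 groups elsewhere. The other 28 on chromosome 19 had no strong interval within that distance. Intervals of any strength were joined more often, with 540 of 618 on chromosome 19 (87.4%, 84.5 to 89.9%) and 66.2% (65.3 to 67.2%) elsewhere. A higher density alone brings neighbours closer, and no comparison with random positions was made. At distances up to 10 kb, only 2 of the 54 were joined.

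The largest group spanned chr19:11979002-12187547, where 7 strong intervals of 4.91- to 7.72-fold, 5 of them wide, lay in 209 kb among 13 intervals in all. The megabase that holds most of it, 12000001 to 13000000, had 9 strong and 11 wide intervals, the most of any megabase of the chromosome. A group of 4 at chr19:2834233-2933871 ran from 3.88- to 13.7-fold and held the highest interval of the list. Groups of 3 lay at chr19:9491913-9634984, with folds of 3.33 to 6.20, at chr19:23040331-23159623, with 4.90 to 9.97, and at chr19:58619143-58708737, with 5.69 to 9.29. Pairs lay at chr19:22130607-22144572, chr19:37037921-37130248 and chr19:44514579-44536611. By side of the interval-free stretch at 24631182 to 27732170, the low-coordinate side had 36 strong intervals (1.47 per Mb) and the high side 18 (0.574 per Mb), while wide intervals numbered 36 and 27. Intervals of any strength were also denser on the low side, with 347 (14.1 per Mb) against 271 (8.63 per Mb). The strong ones made up 10.4% and 6.64% of these.

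Groups also occurred on other chromosomes. On chromosome 16, 4 strong intervals of 6.53- to 11.8-fold lay in 185 kb at chr16:3273901-3459025, 2 of them wide, and included both of the chromosome's entries among the 20 highest. Chromosome 4 had 2 wide strong intervals at chr4:366749-437921, of 4.84- and 5.80-fold. Chromosome 11 had 2 wide intervals less than 1 kb apart, at chr11:119954593-119956423, with 5.69- and 5.93-fold.

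Raised input lay under 901 of the 10246 intervals (8.79%, 8.25 to 9.36%) and 36 of the 266 strong ones (13.5%, 9.66 to 18.2%), and it was unevenly spread. Chromosome 11 held 10 of the 36 and chromosome 14 held 8, whereas chromosome 19 held 4. Strong intervals with raised input had a median of 3.76-fold, and those without 5.71-fold. The expected pileup is also the denominator of the fold, so this difference is partly set by the definition. The interval with the highest −log10 q of this kind, chr11:67900214-67900603, stood at 6.11-fold (5.11 to 7.26) on 128 ChIP fragments before scaling. The expected pileup there, on the scale of the input library, was 16.2.

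On chromosome 14 all 8 lay in a stretch of 1.94 Mb, chr14:30308956-32251207, and only 1 strong interval of that chromosome lacked raised input. The stretch was singled out after these values were seen. It held 48 intervals, or 18.8% of the 255 on chromosome 14, and all 48 had raised input, with a median expected pileup of 30.4, 11.7 times the genome background. Folds there were low, with a median of 1.82 and a maximum of 3.53 at chr14:32250776-32251207, which stood on 184 fragments, the most of any summit in the list. In tagged Huh7 the anti-HA list had 74 intervals in the same stretch, 71 of them with raised input, and a median expected pileup 7.50 times its background. In HepG2 the median was 1.22 times the background over 100 anti-HOXA13 intervals and 1.32 times over 64 anti-HA intervals. Raised input lay under 1 of these 100 and 8 of these 64, with expected pileups of up to 13.6 and 21.6. Input was therefore raised under most intervals of this stretch in both lists of Huh7 cells and under few in those of HepG2 cells.

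Strong intervals had a counterpart in another list more often than the rest, although most had none. Of the 266, 209 (78.6%, 73.2 to 83.4%) overlapped no interval of the other 3 lists, against 9452 of the 9980 that were not strong (94.7%, 94.2 to 95.1%). HepG2 anti-HOXA13 met 44 (16.5%, 12.3 to 21.6%), against 2.02% (1.76 to 2.32%) of those that were not strong. Tagged HepG2 anti-HA met 16 (6.02%, 3.48 to 9.58%), against 1.98% (1.72 to 2.28%). Tagged Huh7 anti-HA met 3 (1.13%, 0.233 to 3.26%), against 1.76% (1.51 to 2.05%), so strong intervals were not met more often than the others by the tag antibody in the same cell line. The lists differ in length and strength, with 71316 autosomal intervals for HepG2 anti-HOXA13, 34089 for tagged HepG2 anti-HA and 28346 for tagged Huh7 anti-HA, and longer lists meet more intervals.

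HepG2 anti-HOXA13 met a larger share of wide than of narrower strong intervals. It met 24 of 66 wide strong intervals (36.4%, 24.9 to 49.1%) and 20 of 200 narrower strong ones (10%, 6.22 to 15.02%). The shares of wide strong intervals were close on chromosome 19 and elsewhere, with 11 of 31 wide strong intervals met (35.5%, 19.2 to 54.6%) against 13 of 35 elsewhere (37.1%, 21.5 to 55.1%). A wide interval is met more easily for its width alone, and when summits had to lie within 200 bp the counts were 14 of 66 (21.2%, 12.1 to 33.0%) and 22 of 200 (11%, 7.02 to 16.2%), whose intervals overlap. Anti-HA of either line missed most strong intervals of both widths, with 60 of 66 wide ones (90.9%, 81.3 to 96.6%) and 187 of 200 narrower ones (93.5%, 89.1 to 96.5%) not met. Over the 44 overlapped intervals the HepG2 fold, taken at the HepG2 summit, had a median of 3.13 (1.85 to 5.29). Of these 44, 2 were strong in the HepG2 list, against 13 of the 202 met among intervals that were not strong.

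**Figure D5:**
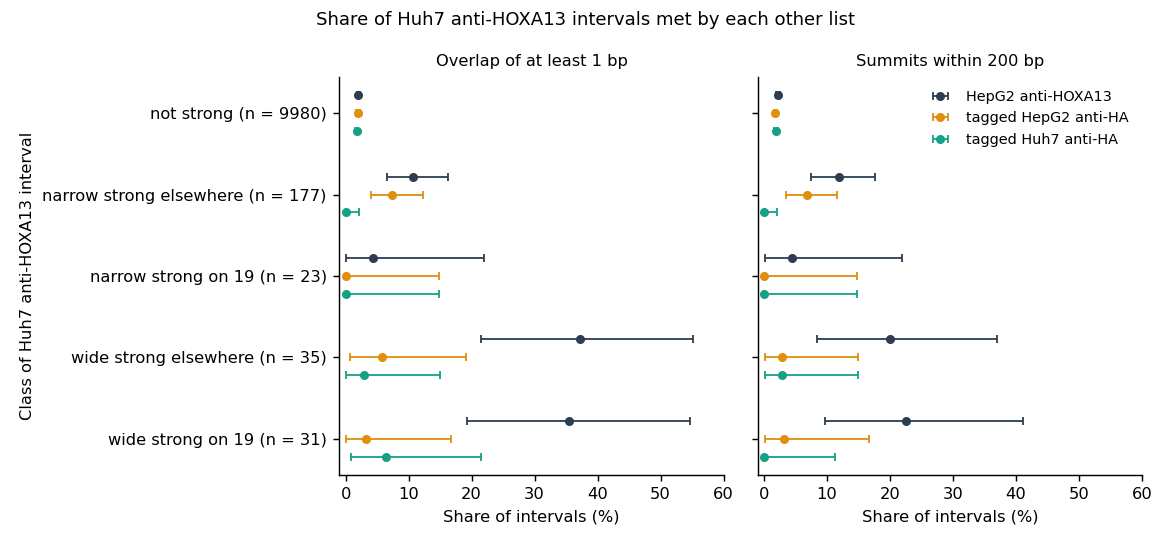
Share of Huh7 anti-HOXA13 intervals (x axis, %) that were met by an interval of each other list, by class (y axis: not strong, or strong and under 500 bp or wide, on chromosome 19 or elsewhere), for an overlap of at least 1 bp (left) and for summits within 200 bp (right). Points carry exact 95% binomial intervals; HepG2 anti-HOXA13 met 35.5% and 37.1% of the wide strong classes at 1 bp.

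The folds of overlapping intervals in the other lists are given next, each at the summit of its own list. In wide intervals the 2 summits can lie apart, so these folds need not belong to the same place. Of 19 strong intervals of 1000 bp or more, HepG2 anti-HOXA13 overlapped 11 and had a summit within 200 bp for 3. Of the 10 highest intervals on chromosome 19, HepG2 anti-HOXA13 met 5. It stood at 3.42-fold at chr19:58708182-58708737, 3.36-fold at chr19:44980643-44981768, 3.30-fold at chr19:7083031-7083813, 3.32-fold at chr19:12637448-12638686 and 2.93-fold at chr19:58489598-58490893, where Huh7 had between 8.90- and 9.29-fold. The leader of the Huh7 list had no interval in any other list. Tagged Huh7 anti-HA had an interval at chr19:58489598-58490893 alone among these 10, at 2.12-fold, and tagged HepG2 anti-HA had none. Among the 10 widest intervals HepG2 anti-HOXA13 met 6, at 5.29-fold on chromosome 12, 4.91-fold on chromosome 4, 3.21-fold on chromosome 1 and, on chromosome 19, 4.83-fold at chr19:58772917-58774233, 2.93-fold at chr19:58489598-58490893 and 2.90-fold at chr19:56934622-56935940. Of the 20 highest, tagged HepG2 anti-HA met 2, both on chromosome 1, at 3.87-fold (chr1:144365563-144365773) and 2.62-fold (chr1:185554815-185555316). The antibody, the tag and the cell population differ together between the lists of untagged and tagged cells and cannot be told apart.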

How the data were processed

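The submitters' processing notes name BWA for alignment, MACS2 for peak calling and GRCh38, without versions or settings. The sequence names in the lists are those of GRCh37 with decoy, so coordinates are printed as GRCh37, 1-based. The tables used here for symbols are GRCh38.p14, so no interval was assigned to a gene and no sequence is printed; motifs at summits and genes near intervals, both planned, were not run. Each interval carries the authors' deposited fold (a ratio at the summit, scaled ChIP pileup plus 1 over expected pileup plus 1), their −log10 p and −log10 q, and another whole number that the authors deposited, the distance of the summit from the interval's start. The lowest −log10 p was 2.00.

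The fragment count and expected pileup at each summit were solved here from fold and p with MACS2's published formulas, to within 0.005 in −log10 p for 100% of intervals. The ChIP was scaled by 0.812, which corresponds to 70.3 M ChIP and 57.1 M input reads if the effective genome was 2700000000 bp and the fragment length that of the shortest interval, 123 bp. Folds carry 95% Poisson intervals of the ChIP fragment count with the expected pileup held fixed, so counting error of the input is left out. Shares carry exact (Clopper-Pearson) 95% binomial intervals, for counting error only. Densities use the length from the first to the last interval of any list, less interval-free stretches of 1 Mb or more. Overlap needed 1 bp. Named intervals were the 20 highest by fold, the 10 highest on chromosome 19, the 10 widest and the highest of each autosome. The IgG libraries were not analysed here. The intervals and lists were chosen with earlier results of these data known. The width limit of 500 bp and the chromosome 14 stretch were chosen after the values were seen. Computation used Python 3.11.15 with scipy 1.17.1, numpy 2.4.6 and pandas 2.3.3, and plots matplotlib 3.10.9. On 4923 simulated summits the ChIP fragment count was recovered in 100%, and 300 of 300 planted overlaps were found. The simulated expected pileups were mostly far below those of the chromosome 14 stretch, so the check says little about such places. Recovery of the expected pileup is not given here.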

Additional observations from a re-analysis of the deposited data

Results flagged for a closer look

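The list held signal outside chromosomes 1 to 22, which the report did not use. The decoy, a set of human sequences that the assembled chromosomes lack, held 256 intervals, 4 of them strong, with a highest fold of 4.55. Chromosomes X and Y held 168 intervals, none of them strong, up to 4.79-fold. Unplaced contigs held 40 intervals, none of them strong, up to 4.56-fold. There is no replicate or control list for these counts.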

How the results depend on the processing

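The direction of the chromosome 19 excess held under all alternatives run, while its size moved with the limit for strong intervals. At −log10 q of 1.3 or more the chromosome 19 share was 14.4%, its density 7.38 times the median autosome, the share within 100 kb of another 27.9%, the share met by HepG2 anti-HOXA13 8.75% and the median width 253 bp. At −log10 q of 10 or more (93 intervals, 0.908%) the density was 18.1 times, the share met by HepG2 anti-HOXA13 24.7%, the median width 387 bp and the share with raised input 18.3%. At 5-fold or more the share with raised input was 2.91%, a limit that itself disfavours raised input because the expected pileup divides the fold. Raised input set at over 2 times the background covered 27.1% of strong intervals, and at over 5 times 4.89%. Joined at 10 kb, 2.26% of strong intervals had a neighbour, and at 1 Mb 44.0%. With at least 50% of both intervals overlapping, HepG2 anti-HOXA13 met 5.64%, tagged HepG2 anti-HA 1.504% and tagged Huh7 anti-HA 0%. Against strong intervals of the other list alone these were 0.752%, 1.88% and 0%, the last with an exact upper 95% limit of 1.38%. Limits chosen after the data were seen gave 23.2% of intervals of 300 bp or more on chromosome 19. HepG2 anti-HOXA13 met 24.8% of strong intervals of 300 bp or more and 4.59% of those under 300 bp, and 21.2% of wide strong ones by summits within 200 bp. The causes of these shifts were not tested. Ranked by −log10 q instead of fold, 11 of the 20 highest intervals stayed, 8 of the 20 lay on chromosome 19 and 4 had raised input. Of the 53 alternative values, 28 stayed within the counting error of the main value. No paired analysis was possible because each condition has 1 library. Depth limits the list: the median summit stood on 14 fragments, and places with a p above 0.01 are not in it.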

Other observations

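Among megabases with at least 5 intervals, others outside chromosome 14 also had a high expected pileup, given as values with no test. The median expected pileup was 28.1 over 6 intervals in the megabase of chromosome 4 that ends at 53000000, and 25.8 over 6 intervals in that of chromosome 8 that ends at 87000000. It was 18 over 7 intervals in the megabase of chromosome 2 ending at 93000000, 13.4 over 19 intervals in that of chromosome 9 ending at 85000000, 12.2 over 17 intervals in that of chromosome 3 ending at 88000000, and 11.2 over 12 intervals in that of chromosome 11 ending at 67000000. The genome background was 2.60. These 6 megabases held 1 strong interval in all, on chromosome 9.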
